A study of Homo sapiens with 10 samples.

Results

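The lysosome and proton pump genes are 39 genes taken by name: soluble lysosomal hydrolases and their helpers, lysosomal membrane proteins, the autophagy receptor SQSTM1, subunits of the proton pump, and the transcription factors TFEB and TFE3. All 39 were matched by their current symbol among the 57445 gene identifiers of the count tables, and the matching used no measured value. The set itself was chosen with earlier results of these data known, so its shares of called genes are not an independent test. By role they comprise 7 proteases, 8 glycosidases, 4 lipases or sulfatases, 2 soluble helper proteins, 5 membrane proteins, 1 autophagy receptor, 10 proton pump genes and 2 transcription factors. They were measured by stranded messenger RNA sequencing in PC3, an established human prostate cancer cell line that expresses little androgen receptor. There are 5 groups of 2 libraries. In 3 groups PC3 stably expressed a hairpin RNA: Scramble (the control), RNF2 shRNA1 (shRNA1 below) or RNF2 shRNA2. RNF2 encodes the catalytic subunit, a ubiquitin ligase for histone H2A, of Polycomb repressive complex 1. In the other groups PC3 was given PRT4165, known to inhibit this ligase, or GW-516, which the labels give by its code name alone. Both compounds were applied for 48 hours. No dose and no vehicle group is in the labels, which also do not say whether the compound-treated cells carried a hairpin. Every comparison of a compound with Scramble therefore also holds any effect of vehicle, vector and separate culture, which cannot be told apart from the compound.

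Lysosomes are acidic organelles in which hydrolases degrade proteins, glycans and lipids delivered by endocytosis and autophagy. Their acidity is made by the vacuolar ATPase (V-ATPase), a rotary pump in which the cytosolic V1 sector breaks down ATP and the membrane-bound V0 sector carries protons into the lumen. Most soluble hydrolases reach the lysosome with a mannose 6-phosphate tag added in the Golgi. TFEB and TFE3 are related transcription factors that are held in the cytoplasm by the kinase complex mTORC1 when nutrients are plentiful. In the nucleus they bind E-box sequences, including the CLEAR element, in promoters of lysosomal and autophagy genes.

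Total counts per library ran from 65877850 to 108380198. The highest total is that of replicate 2 labelled RNF2 shRNA2, whose file header alone carries the mark L005only, against 71352811 in its replicate 1. Levels below are CPM (counts scaled to library size, after TMM normalization), differences are on the log2 scale, and adjusted p-values come from edgeR's quasi-likelihood test with Benjamini-Hochberg adjustment over all 18478 genes that passed a filter on low counts. A gene was called higher or lower at an adjusted p below 0.05. Whether a group's 2 libraries are from separate cultures is not in the labels, so p-values measure only the spread between these libraries, which may be technical. In Scramble, shRNA1 and GW-516 the 2 libraries differed by little more than counting noise, with chi-square values per degree of freedom of 1.08, 1.09 and 1.10 once counts were halved for the 2 ends of a fragment, against 6.11 and 3.44 for those labelled RNF2 shRNA2 and for PRT4165. A second fit therefore summed each of those 3 pairs into 1 sample, and counts of calls from it stand beside the main ones.

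RNF2 was measured at 30.6 and 28.3 CPM in the Scramble libraries, 12.1 and 12.0 with shRNA1, and 33.5 and 35.3 in the libraries labelled RNF2 shRNA2. It fell with shRNA1, by 1.29 on the log2 scale (adjusted p = 2.34e-15), and was higher in the libraries labelled RNF2 shRNA2, at a log2 difference of 0.23 ± 0.052 (SE, adjusted p = 0.00103). In those libraries BMI1, another Polycomb subunit that shares 23.3% of its exon length with other genes on its strand, was at 53.0 and 61.6 CPM against 251.5 and 254.7 in Scramble, and the headers of their files carry a numeric code in place of a hairpin name. These libraries go against their label for the targeted gene, and no result below takes them as a knockdown of RNF2. Epithelial markers summed to 1158 to 1590 CPM across libraries, with the highest values in GW-516. KRT19 was at 787 and 778 CPM in GW-516 against 487 and 482 in Scramble. KRT18 went the other way, at 387 and 377 CPM against 436 and 443. With GW-516, 4 of the 5 epithelial markers were called higher and 1 lower, beside 26.5% and 29.0% of all genes. Macrophage and blood cell markers summed to 0.395 to 2.00 CPM, also highest in GW-516. Among these blood cell markers CD163 was at 0 in 8 libraries and MARCO in 7. ITGAM rose from 0.0279 and 0.0304 CPM in Scramble to 0.693 and 0.592 CPM in GW-516 (adjusted p = 3.74e-06). LYZ was at 0.17 and 0.12 CPM in Scramble and at 0.93 and 0.71 CPM in GW-516. Stromal markers summed to 16.1 to 47.9 CPM, nearly all of it COL1A1 (15.2 to 46.9 CPM, highest in GW-516), while COL3A1 and PDGFRB stayed below 1 CPM and were highest with shRNA1. Endothelial markers summed to 0.374 to 6.55 CPM, nearly all of it KDR (0.343 to 6.4 CPM, highest with the 2 compounds), with CDH5 at 0 in 7 libraries. The stromal and endothelial sums are thus mostly values of single genes. Summed luminal androgen-driven prostate markers ran from 0 to 0.456 CPM, highest in Scramble. The part of such shifts in the lysosomal values was not tested, and in bulk RNA a change in the number of cells of a kind and a change in RNA per cell cannot be told apart.

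Per length of exon, the members spanned over 3 orders of magnitude in control cells. PSAP, the precursor of the saposins that help degrade sphingolipids, had the highest level at 195 RPKM (counts scaled by exon length and library size, mean of the 2 Scramble libraries), followed by the tetraspanin CD63 at 139.6 RPKM, SQSTM1 at 69 RPKM and the cysteine protease CTSB at 50.6 RPKM. PSAP lay above 99.2% of the genes tested. At the low end were TFE3 at 2.25, the sialidase NEU1 at 1.29, TFEB at 0.429 and the iduronate sulfatase IDS at 0.357 RPKM. IDS has a near-identical pseudogene copy and shares 20.1% of its exon length with other genes on its strand, so its level is uncertain. The same holds for the levels of CTSD, MAN2B1 and NAGLU, which share 22.8%, 21.2% and 12.6% of their exon length with such genes. Summed over the 39 genes, RPKM was 950.7 and 952.8 in Scramble, 1007 and 1007 with shRNA1, 915.0 and 894.9 in the libraries labelled RNF2 shRNA2, 1058 and 1075 with PRT4165, and 1272 and 1278 with GW-516. Both GW-516 libraries lay above the other 8 in this sum, and both libraries labelled RNF2 shRNA2 lay below them. PSAP, CD63 and SQSTM1 make up much of it, so it follows the abundant members.

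**Figure D1:**
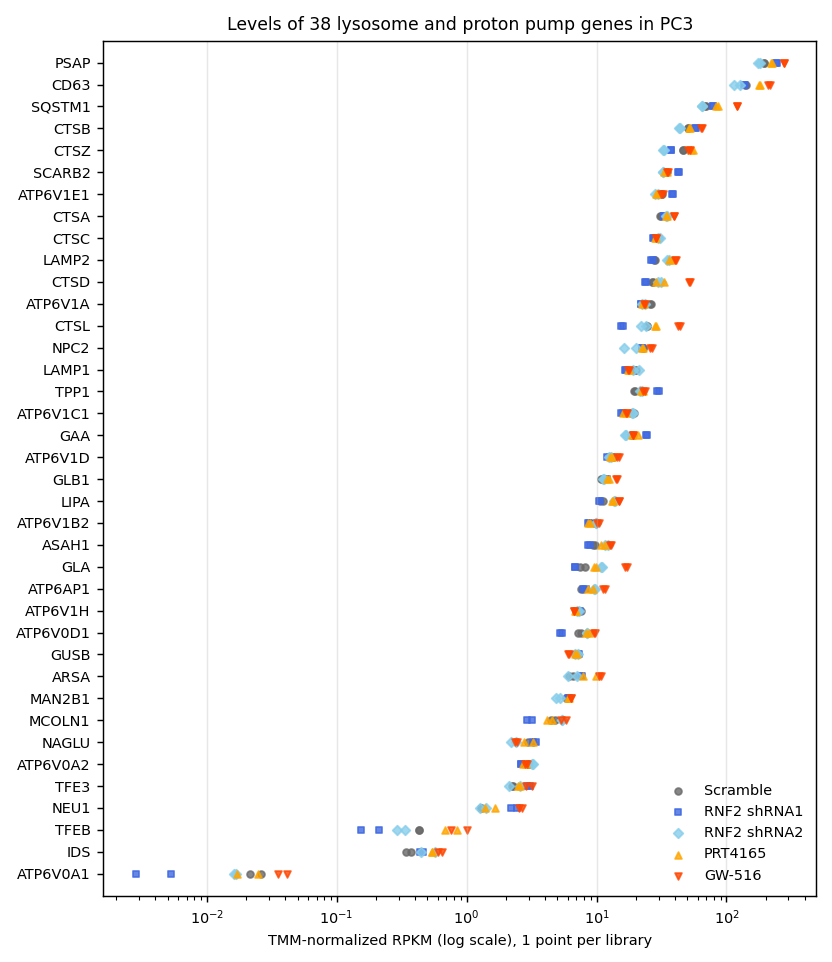
Levels of the 38 members with a count in most libraries, in TMM-normalized RPKM on a log axis, with 1 point per library and colours and shapes for the 5 groups. PSAP, CD63 and SQSTM1 are at the top, TFEB does not exceed 1.01 RPKM in any library, and ATP6V0A1 lies far below the rest.

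Promoter stretches are shown because TFEB and TFE3 are known to bind the E-box core CACGTG, and members that hold it moved in different directions. Of the 39 members 28 are in the RefSeq promoter table used here (GRCh38.p14, 250 bases before to 50 after a gene's start). CACGTG, which reads the same on both strands, occurred in 8 of these 28 windows (28.6%) and in 2030 of all 27305 windows of the table (7.43%). Its extension TCACGTGA, which contains the former, occurred in 5 of the 28 (17.9%) and in 283 of the 27305 (1.04%). The 8 genes are ATP6V0D1, CD63, CTSA, CTSD, GAA, LAMP1, MCOLN1 and NEU1. Stretches of 6 of them, upstream of the start and written 5′ to 3′ along the gene's strand, are given here from RefSeq (GRCh38.p14 coordinates) with CACGTG in capitals.
MCOLN1 (chr19:7522566-7522623): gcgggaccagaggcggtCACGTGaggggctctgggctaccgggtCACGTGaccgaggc
ATP6V0D1 (chr16:67481194-67481233): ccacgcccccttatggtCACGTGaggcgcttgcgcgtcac
CTSD (chr11:1763952-1763991): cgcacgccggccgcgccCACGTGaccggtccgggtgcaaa
NEU1 (chr6:31862925-31862964): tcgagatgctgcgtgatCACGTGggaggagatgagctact
LAMP1 (chr13:113297030-113297119): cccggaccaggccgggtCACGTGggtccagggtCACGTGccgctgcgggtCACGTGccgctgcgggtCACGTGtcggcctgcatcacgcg
GAA (chr17:80101533-80101572): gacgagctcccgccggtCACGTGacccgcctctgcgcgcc
In MCOLN1, which encodes the lysosomal calcium channel mucolipin, the copies begin 41 and 14 bases before the start, and both are TCACGTGA. LAMP1 holds 6 copies in its window, more than any other member, and 4 of them stand in the stretch shown. In the GAA stretch the copy begins 31 bases before the start. A match is a run of letters and says nothing about binding in these cells. The log2 difference of these genes with GW-516 ran from -0.17 for LAMP1 through 0.024 for GAA and 0.28 for MCOLN1 to 0.95 for CTSD and 1.00 for NEU1. GLA, which rose most with GW-516, and TFEB hold no CACGTG in their windows.

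Across the 4 comparisons with Scramble, GW-516 moved the most members upward, PRT4165 moved fewer upward, and both hairpin groups moved members in both directions. All 4 comparisons share the 2 Scramble libraries. HEXA did not pass the filter, which left 38 members tested. With GW-516, 23 of 38 members (60.5%) were called higher and 7 (18.4%) lower, where 26.5% of all genes tested were called higher and 29.0% lower. The median log2 difference was 0.34 over the members and -0.0025 over all genes. With PRT4165, 18 members (47.4%) were higher and 6 (15.8%) lower, beside 19.9% and 21.7% of all genes, and the median was 0.16 against -0.012 over all genes. With shRNA1, 13 members (34.2%) were higher and 16 (42.1%) lower, beside 26.2% and 28.6% of all genes, with medians of -0.039 and -0.015. In the libraries labelled RNF2 shRNA2, 11 members (28.9%) were higher and 13 (34.2%) lower, beside 21.1% and 21.0% of all genes, with medians of 0.0060 and 0.0086. Each of the 38 members was called in at least 1 of the 4 comparisons, 12 were called in all 4, and 16 were called higher in one comparison and lower in another. The same counts over all genes were not taken, so these numbers are not read as particular to the members. Calls of at least 1.5-fold numbered 9 higher and 0 lower with GW-516, 2 and 0 with PRT4165, 2 and 4 with shRNA1, and 0 and 0 in the libraries labelled RNF2 shRNA2. Over all 18478 genes such calls numbered 2316 higher and 841 lower with GW-516, and 1177 and 538 with PRT4165. They numbered 1686 and 1755 with shRNA1, and 696 and 1204 in the libraries labelled RNF2 shRNA2. With both compounds the calls over all genes at this fold thus also lay mostly upward.

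With the 3 near-identical pairs summed, GW-516 had 21 members higher and 1 lower (15.8% and 18.0% of all genes), PRT4165 16 and 3 (12.5% and 11.6%), shRNA1 9 and 9 (16.9% and 17.3%), and the libraries labelled RNF2 shRNA2 8 and 8 (10.8% and 13.2%). Calls that ended there with GW-516 were the lower calls of CTSC, LAMP1, GUSB, ATP6V1A, ATP6V1C1 and ATP6V1H and the higher calls of CTSZ and ATP6V1D (adjusted p = 0.0771 to 0.434). With PRT4165 they were those of CTSC, CTSD, GLB1, ATP6V1B2 and ATP6V1E1 (0.0505 to 0.477), and with shRNA1 those of CTSA, CTSC, CTSD, GLA, GLB1, ASAH1, IDS, ARSA, ATP6V0A2, ATP6V1B2 and ATP6V1D (0.0895 to 0.379). In the libraries labelled RNF2 shRNA2 they were those of CTSA, CTSD, SCARB2, MCOLN1, TFEB, PSAP, SQSTM1 and ATP6V1E1 (0.065 to 0.255).

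**Figure D2:**
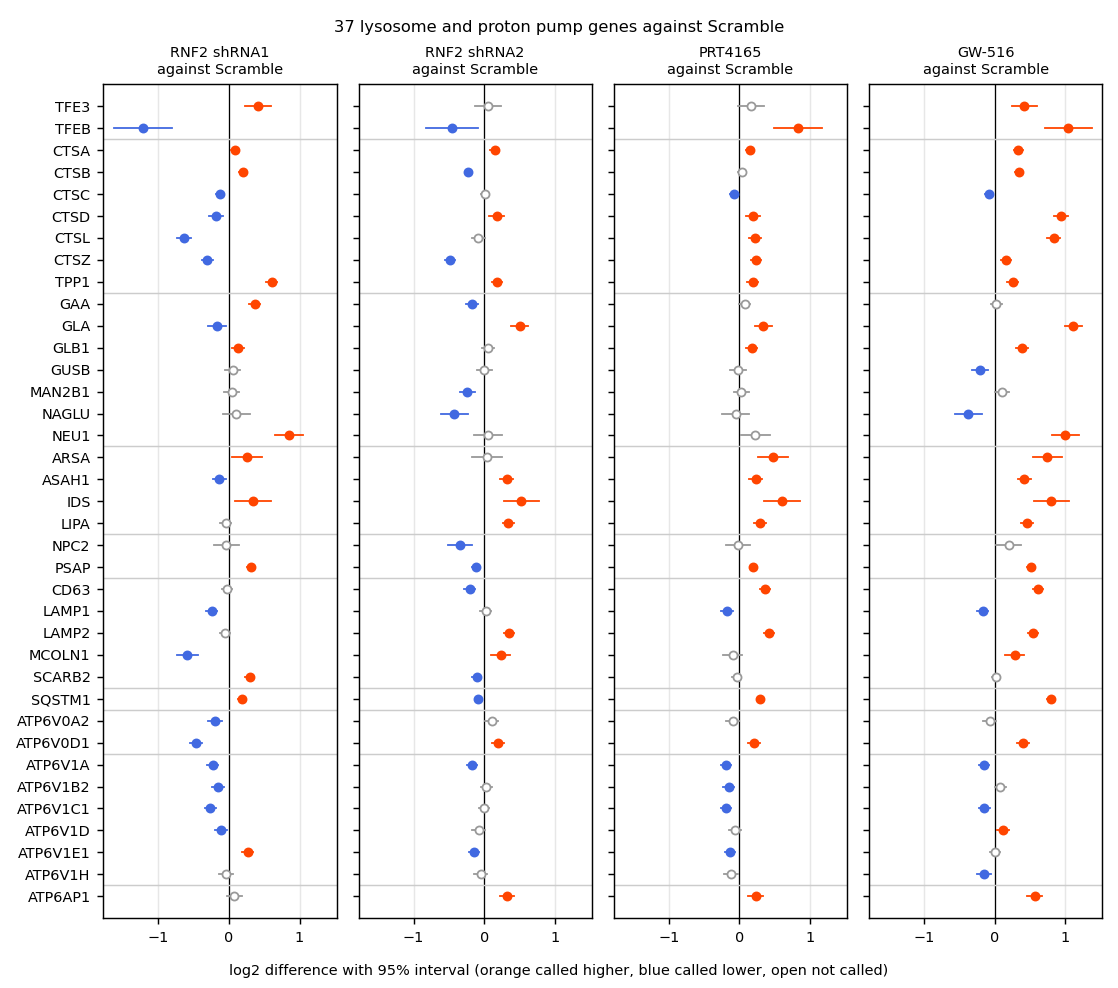
log2 difference from Scramble (horizontal axis) with its 95% interval for 37 members, grouped by role from the transcription factors at the top to the pump accessory protein at the bottom, in 1 panel per comparison. Filled orange points were called higher, filled blue points lower and open points not called; ATP6V0A1, counted at most 40 times in a library, is left out. The GW-516 panel has most points to the right of 0 and the V1 subunits near 0.

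The transcription factors TFEB and TFE3 moved apart with shRNA1 and together with GW-516. TFEB (chr6:41651716-41703997, minus strand, GRCh37 as for all gene positions here) was at 2.41 and 2.43 in the Scramble libraries, 1.20 and 0.873 with shRNA1, 1.90 and 1.65 in the libraries labelled RNF2 shRNA2, 3.87 and 4.79 with PRT4165, and 5.72 and 4.26 with GW-516, all in CPM. Both libraries of each compound lay above all 6 hairpin libraries, and both shRNA1 libraries lay below all others. TFEB rose 2.06-fold with GW-516, a log2 difference of 1.04 ± 0.16 (SE, adjusted p = 5.90e-06), and 1.78-fold with PRT4165, at 0.83 ± 0.16 (SE, adjusted p = 2.06e-04). With shRNA1 it fell 2.33-fold, at -1.22 ± 0.20 (SE, adjusted p = 1.40e-05). For the libraries labelled RNF2 shRNA2 the log2 difference was -0.46 ± 0.18 (SE, adjusted p = 0.0408), and this call was lost without replicate 2 of that group (adjusted p = 0.201) and without either Scramble library (0.12 and 0.148).

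TFE3 (chrX:48886242-48901012, minus strand) was at 9.52 and 9.73 in the Scramble libraries, 12.4 and 13.2 with shRNA1, 11 and 9.13 in the libraries labelled RNF2 shRNA2, 10.6 and 11.1 with PRT4165, and 12.2 and 13.6 with GW-516, in CPM. The shRNA1 and GW-516 libraries lay above both Scramble libraries, while those labelled RNF2 shRNA2 lay on either side of them. TFE3 rose with GW-516, at a log2 difference of 0.42 ± 0.086 (SE, adjusted p = 2.00e-04), and with shRNA1, at 0.41 ± 0.088 (SE, adjusted p = 3.17e-04). With PRT4165 the difference was 0.17 ± 0.088 (SE, adjusted p = 0.134), and for those labelled RNF2 shRNA2 it was 0.054 ± 0.088 (SE, adjusted p = 0.665).

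All 7 proteases were called with GW-516, 6 higher and 1 lower, and 5 were called higher with PRT4165. CTSD (chr11:1773982-1785222, minus strand), the main lysosomal aspartic protease, was at 81.5 and 80.2 in the Scramble libraries, 72 and 70.3 with shRNA1, 89 and 93.5 in the libraries labelled RNF2 shRNA2, 86.5 and 98.9 with PRT4165, and 154 and 157 with GW-516, in CPM. The 2 GW-516 libraries lay far above the other 8, and the 2 shRNA1 libraries lay below them all. CTSD rose 1.93-fold with GW-516, at a log2 difference of 0.95 ± 0.047 (SE, adjusted p = 2.96e-12), and its differences in the other comparisons were 0.20 with PRT4165, -0.18 with shRNA1 and 0.17 in the libraries labelled RNF2 shRNA2. Those 3 smaller calls were all lost with pairs summed. The PRT4165 value was 0.30 without PRT4165 replicate 1 and 0.11 without replicate 2. The shRNA1 call was also lost without its replicate 2 (adjusted p = 0.0834), and the third without RNF2 shRNA2 replicate 2 (0.0724) or Scramble replicate 2 (0.0604). CTSL (chr9:90340434-90346308, plus strand), a cysteine endopeptidase with pseudogene copies, was at 57.7 and 57.5 in the Scramble libraries, 37.5 and 36.6 with shRNA1, 57 and 51.9 in the libraries labelled RNF2 shRNA2, 66.5 and 68 with PRT4165, and 105 and 101 with GW-516, in CPM. Its GW-516 libraries were the highest and its shRNA1 libraries the lowest. CTSL rose with GW-516, at 0.83 ± 0.042 (SE, adjusted p = 2.44e-14), and with PRT4165, at 0.22 ± 0.043 (SE, adjusted p = 1.59e-04), and fell with shRNA1, at -0.64 ± 0.045 (SE, adjusted p = 1.12e-11).

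TPP1 (chr11:6634000-6640692, minus strand), a tripeptidyl peptidase, was at 97 and 94.4 in the Scramble libraries, 143 and 148 with shRNA1, 106 and 110.4 in the libraries labelled RNF2 shRNA2, 111 and 107 with PRT4165, and 112 and 116 with GW-516, in CPM. Every other group lay above Scramble for TPP1, and the shRNA1 libraries were the highest. TPP1 rose 1.52-fold with shRNA1, at a log2 difference of 0.61 ± 0.036 (SE, adjusted p = 3.40e-13), and less in the others, with differences of 0.18, 0.19 and 0.25 in the libraries labelled RNF2 shRNA2, PRT4165 and GW-516. CTSZ (chr20:57570240-57582302, minus strand), a carboxypeptidase, was at 93.8 and 93.8 in the Scramble libraries, 75.7 and 76 with shRNA1, 66.3 and 67.6 in the libraries labelled RNF2 shRNA2, 108 and 112 with PRT4165, and 107 and 103 with GW-516, in CPM. Both hairpin groups lay below Scramble and both compounds above it. CTSZ fell in the libraries labelled RNF2 shRNA2, at -0.49 ± 0.036 (SE, adjusted p = 6.59e-11), and with shRNA1, at -0.31 ± 0.036 (SE, adjusted p = 7.74e-08). CTSB rose with GW-516 (0.34) and shRNA1 (0.19) and fell in the libraries labelled RNF2 shRNA2 (-0.22). CTSA, a carboxypeptidase that also protects the sialidase NEU1, was called higher in all 4 comparisons, with differences of 0.088 to 0.34. The shRNA1 call of CTSA was lost without shRNA1 replicate 1 (adjusted p = 0.0723) or Scramble replicate 1 (0.0756). CTSC, which activates granule serine proteases, had differences of -0.13 to 0.0078. Its lower calls with either compound were lost without any 1 of the 4 libraries compared (adjusted p = 0.0935 to 0.385 for PRT4165 and 0.152 to 0.263 for GW-516).

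The glycosidases split, with GLA and NEU1 about 2-fold higher with GW-516 while NAGLU and GUSB were lower. GLA (chrX:100652791-100662913, minus strand), the alpha-galactosidase A that is deficient in Fabry disease, was at 15.3 and 16.7 in the Scramble libraries, 14.2 and 14.2 with shRNA1, 22.8 and 22.5 in the libraries labelled RNF2 shRNA2, 20.5 and 19.8 with PRT4165, and 34.1 and 35.1 with GW-516, in CPM. The groups did not overlap, and they ran in the order shRNA1, Scramble, PRT4165, the libraries labelled RNF2 shRNA2, and GW-516. GLA rose 2.17-fold with GW-516, at a log2 difference of 1.11 ± 0.057 (SE, adjusted p = 2.24e-14). It also rose in those labelled RNF2 shRNA2, at 0.50 ± 0.058 (SE, adjusted p = 1.24e-07), and with PRT4165, at 0.34 ± 0.059 (SE, adjusted p = 4.77e-05). With shRNA1 it was lower, at -0.17 ± 0.062 (SE, adjusted p = 0.0206), a call lost without shRNA1 replicate 1 (adjusted p = 0.0832), shRNA1 replicate 2 (0.11) or Scramble replicate 2 (0.331). NEU1 (chr6:31825436-31830683, minus strand), the lysosomal sialidase, was at 6.22 and 6.26 in the Scramble libraries, 11.8 and 10.7 with shRNA1, 6.15 and 6.75 in the libraries labelled RNF2 shRNA2, 6.66 and 7.99 with PRT4165, and 12.8 and 12.2 with GW-516, in CPM. The shRNA1 and GW-516 libraries stood apart from the other 6. NEU1 rose 2.00-fold with GW-516, at 1.00 ± 0.094 (SE, adjusted p = 1.84e-09), and 1.8-fold with shRNA1, at 0.85 ± 0.10 (SE, adjusted p = 4.18e-08). With PRT4165 its difference was 0.23 ± 0.10 (SE, adjusted p = 0.0708).

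NAGLU (chr17:40688190-40696467, plus strand), an alpha-N-acetylglucosaminidase that degrades heparan sulfate, was at 8.97 and 9.75 in the Scramble libraries, 10.4 and 9.73 with shRNA1, 6.65 and 7.25 in the libraries labelled RNF2 shRNA2, 8.26 and 9.82 with PRT4165, and 7.08 and 7.37 with GW-516, in CPM. The GW-516 libraries and those labelled RNF2 shRNA2 lay below the other 6. NAGLU fell in the libraries labelled RNF2 shRNA2, at a log2 difference of -0.42 ± 0.094 (SE, adjusted p = 6.72e-04), and with GW-516, at -0.37 ± 0.093 (SE, adjusted p = 0.00146). GUSB (chr7:65425671-65447301, minus strand), the beta-glucuronidase often used as a reference gene, was at 27.1 and 28.8 in the Scramble libraries, 29.4 and 28.5 with shRNA1, 27.2 and 28.7 in the libraries labelled RNF2 shRNA2, 27.1 and 28 with PRT4165, and 24.1 and 24.3 with GW-516, in CPM. Both GW-516 libraries lay below the other 8, which overlapped. GUSB was lower with GW-516, at -0.21 ± 0.052 (SE, adjusted p = 0.0016), a call lost without Scramble replicate 2 (adjusted p = 0.0731), and was not called in the other comparisons with Scramble. GUSB has pseudogene copies, which makes its counts uncertain. GAA (chr17:78075355-78093678, plus strand), the acid alpha-glucosidase that degrades glycogen, was at 98.2 and 95.2 in the Scramble libraries, 125 and 124 with shRNA1, 85.3 and 86.2 in the libraries labelled RNF2 shRNA2, 96.7 and 107 with PRT4165, and 98 and 98.8 with GW-516, in CPM. The shRNA1 libraries lay above all others and those labelled RNF2 shRNA2 below all others. GAA rose with shRNA1, at 0.36 ± 0.039 (SE, adjusted p = 1.86e-08), fell in the libraries labelled RNF2 shRNA2, at -0.17 ± 0.039 (SE, adjusted p = 8.72e-04), and differed by 0.073 and 0.024 with PRT4165 and GW-516. GLB1, the beta-galactosidase, rose with GW-516 (0.38) and PRT4165 (0.17) and was called with shRNA1 (0.12), a call lost without Scramble replicate 1 (adjusted p = 0.0811). MAN2B1, an alpha-mannosidase, was called only in the libraries labelled RNF2 shRNA2 among the comparisons with Scramble, at -0.24.

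All 4 lipases and sulfatases were called higher with each compound. ARSA (chr22:51063446-51066607, minus strand), which degrades sulfatides, was at 14.7 and 13.9 in the Scramble libraries, 17.2 and 16.9 with shRNA1, 13.4 and 15.8 in the libraries labelled RNF2 shRNA2, 17.6 and 22.2 with PRT4165, and 24.2 and 23.6 with GW-516, in CPM. Both compounds lay above Scramble, and the PRT4165 libraries lay between Scramble and GW-516. ARSA rose 1.67-fold with GW-516, at a log2 difference of 0.74 ± 0.10 (SE, adjusted p = 1.10e-05), and with PRT4165, at 0.47 ± 0.10 (SE, adjusted p = 0.00123). The PRT4165 value was 0.64 without PRT4165 replicate 1 and 0.31 without replicate 2. With shRNA1 it was 0.26 ± 0.10 (SE, adjusted p = 0.0416), a call lost without any 1 of the 4 libraries compared (adjusted p = 0.0771 to 0.191). IDS (chrX:148558521-148615470, minus strand), which removes sulfate from dermatan and heparan sulfate, was at 3.57 and 3.92 in the Scramble libraries, 4.64 and 4.85 with shRNA1, 4.66 and 6.01 in the libraries labelled RNF2 shRNA2, 5.68 and 5.68 with PRT4165, and 6.75 and 6.29 with GW-516, in CPM. The 2 Scramble libraries were the lowest of the 10. IDS rose with GW-516, at 0.80 ± 0.12 (SE, adjusted p = 3.18e-06), and with PRT4165, at 0.60 ± 0.12 (SE, adjusted p = 2.64e-04). For the libraries labelled RNF2 shRNA2 it was 0.52 ± 0.12 (SE, adjusted p = 0.00102), lost without replicate 2 of that group (adjusted p = 0.0836). With shRNA1 it was 0.34 ± 0.13 (SE, adjusted p = 0.0248), lost without either shRNA1 library (0.0573 and 0.101) or Scramble replicate 1 (0.152).

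LIPA, the acid lipase that releases cholesterol and fatty acids from lipoprotein lipids, and ASAH1, the acid ceramidase, rose to a similar extent. LIPA differed from Scramble by 0.46 with GW-516, 0.29 with PRT4165 and 0.34 in the libraries labelled RNF2 shRNA2, and ASAH1 by 0.42, 0.23 and 0.32. With shRNA1 the difference was -0.049 for LIPA, which was not called, and -0.14 for ASAH1. The latter call was lost without shRNA1 replicate 2 (adjusted p = 0.179) or Scramble replicate 2 (0.191). Of the helper proteins, PSAP rose with GW-516, at 0.51 ± 0.025 (SE, adjusted p = 1.16e-14), with shRNA1, at 0.31 ± 0.025 (SE, adjusted p = 8.28e-11), and with PRT4165, at 0.20 ± 0.025 (SE, adjusted p = 5.38e-07). NPC2, which passes cholesterol to the membrane protein NPC1, fell in the libraries labelled RNF2 shRNA2, at -0.34 ± 0.077 (SE, adjusted p = 0.00512), and was not called in the other comparisons with Scramble. This call was lost when only the 2 groups were fitted (adjusted p = 0.0736), and over the alternatives the NPC2 value ran from -0.50 to -0.21.

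The membrane proteins LAMP1 and LAMP2, abundant glycoproteins of the lysosomal membrane, moved in opposite directions with both compounds. LAMP1 (chr13:113951556-113977987, plus strand) was at 116 and 113 in the Scramble libraries, 97.2 and 95.5 with shRNA1, 122 and 110.2 in the libraries labelled RNF2 shRNA2, 100.5 and 101 with PRT4165, and 103 and 100.2 with GW-516, in CPM. The shRNA1, PRT4165 and GW-516 libraries all lay below both Scramble libraries, and those labelled RNF2 shRNA2 on either side. LAMP1 fell with shRNA1, at a log2 difference of -0.24 ± 0.04 (SE, adjusted p = 1.10e-05), with PRT4165, at -0.18 ± 0.04 (SE, adjusted p = 6.29e-04), and with GW-516, at -0.17 ± 0.039 (SE, adjusted p = 7.05e-04). LAMP2 (chrX:119561682-119603220, minus strand) was at 156 and 157 in the Scramble libraries, 154 and 147 with shRNA1, 195 and 204 in the libraries labelled RNF2 shRNA2, 216 and 203 with PRT4165, and 228 and 229 with GW-516, in CPM. Both compounds and the libraries labelled RNF2 shRNA2 lay above Scramble. LAMP2 rose with GW-516, at 0.54 ± 0.034 (SE, adjusted p = 1.02e-12), with PRT4165, at 0.42 ± 0.034 (SE, adjusted p = 3.28e-10), and in the libraries labelled RNF2 shRNA2, at 0.35 ± 0.034 (SE, adjusted p = 6.62e-09).

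MCOLN1 (chr19:7587512-7598895, plus strand) was at 17.7 and 18.8 in the Scramble libraries, 12.7 and 11.6 with shRNA1, 21.3 and 21.6 in the libraries labelled RNF2 shRNA2, 16.4 and 17.8 with PRT4165, and 23.2 and 21.2 with GW-516, in CPM. Only the shRNA1 libraries were far below Scramble, and PRT4165 overlapped Scramble. MCOLN1 fell 1.5-fold with shRNA1, at a log2 difference of -0.59 ± 0.07 (SE, adjusted p = 9.11e-08), and rose with GW-516, at 0.28 ± 0.065 (SE, adjusted p = 6.16e-04). For the libraries labelled RNF2 shRNA2 it was 0.23 ± 0.065 (SE, adjusted p = 0.0053), a call lost without Scramble replicate 1 (adjusted p = 0.0995). CD63 rose 1.53-fold with GW-516, at 0.61 ± 0.035 (SE, adjusted p = 8.36e-12), and 1.28-fold with PRT4165, at 0.36 ± 0.035 (SE, adjusted p = 5.21e-08), and fell in the libraries labelled RNF2 shRNA2, at -0.21 ± 0.035 (SE, adjusted p = 6.91e-05). SCARB2, the receptor that carries glucocerebrosidase to lysosomes, rose with shRNA1, at 0.30 ± 0.03 (SE, adjusted p = 7.37e-09). Its difference in the libraries labelled RNF2 shRNA2 was -0.10, a call lost without Scramble replicate 1 (adjusted p = 0.0714) or 2 (0.0563).

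SQSTM1 (chr5:179233388-179265078, plus strand), known as p62, binds ubiquitinated cargo for autophagy and is itself degraded with it. It was at 523 and 535 in the Scramble libraries, 602 and 604 with shRNA1, 500.2 and 500.2 in the libraries labelled RNF2 shRNA2, 635 and 664 with PRT4165, and 918 and 916 with GW-516, in CPM. The GW-516 libraries lay far above the rest, PRT4165 and shRNA1 lay above Scramble, and the libraries labelled RNF2 shRNA2 lay below it. SQSTM1 rose 1.73-fold with GW-516, at a log2 difference of 0.79 ± 0.026 (SE, adjusted p = 5.57e-18), which was the smallest adjusted p of any member in any comparison with Scramble. It rose 1.23-fold with PRT4165, at 0.30 ± 0.026 (SE, adjusted p = 1.32e-09), and 1.14-fold with shRNA1, at 0.19 ± 0.026 (SE, adjusted p = 1.01e-06). For the libraries labelled RNF2 shRNA2 the difference was -0.081 ± 0.026 (SE, adjusted p = 0.0139), lost without Scramble replicate 2 (adjusted p = 0.255).

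**Figure D3:**
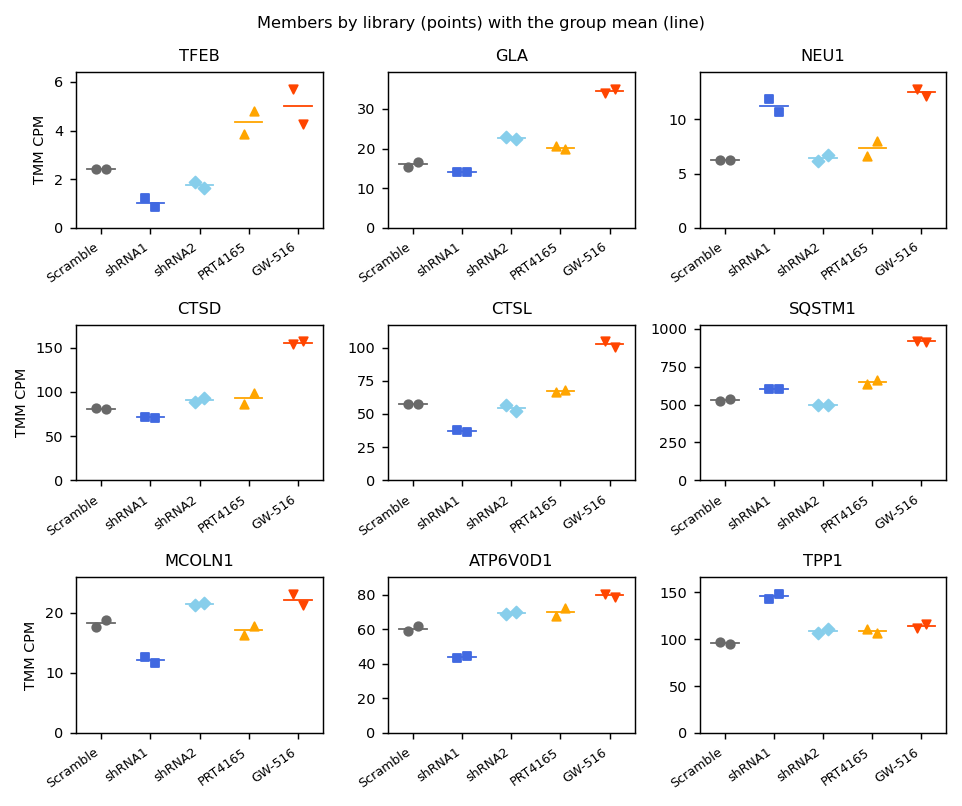
CPM of 9 members in each of the 10 libraries (points) with the group mean (line), on axes that start at 0. GLA, CTSD, CTSL and SQSTM1 are highest in GW-516, NEU1 is high in shRNA1 and GW-516, and TPP1 is highest with shRNA1.

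Among the 6 V1 subunits measured here, 1 (16.7%) was called higher and 3 (50%) lower with GW-516, 0 and 4 (66.7%) with PRT4165, 1 (16.7%) and 4 (66.7%) with shRNA1, and 0 and 2 (33.3%) in the libraries labelled RNF2 shRNA2. The shares of all genes called lower were 29.0%, 21.7%, 28.6% and 21.0%, and with 6 genes a share rests on few calls. With pairs summed, no V1 call stayed with GW-516 (0 higher and 0 lower), 2 lower calls stayed with PRT4165, 1 higher and 2 lower with shRNA1, and 1 lower in the libraries labelled RNF2 shRNA2. Their RPKM summed to 106.9 and 107.4 in Scramble, 104.9 and 103.9 with shRNA1, 100.4 and 100.4 in the libraries labelled RNF2 shRNA2, 97.4 and 96.0 with PRT4165, and 104.4 and 103.2 with GW-516. The sums of the other groups lay below both Scramble libraries. ATP6V1A (chr3:113465866-113530903, plus strand), the catalytic subunit, was at 135 and 131 in the Scramble libraries, 113 and 113 with shRNA1, 114 and 122 in the libraries labelled RNF2 shRNA2, 118 and 116 with PRT4165, and 118 and 120.4 with GW-516, in CPM. The 2 Scramble libraries were the highest of the 10. ATP6V1A fell with shRNA1, at a log2 difference of -0.23 ± 0.035 (SE, adjusted p = 3.56e-06), with PRT4165, at -0.19 ± 0.035 (SE, adjusted p = 1.11e-04), and in the libraries labelled RNF2 shRNA2, at -0.17 ± 0.035 (SE, adjusted p = 2.94e-04). With GW-516 it was -0.15 ± 0.035 (SE, adjusted p = 5.03e-04). ATP6V1C1 (a subunit that helps hold V1 and V0 together) was at 108 and 113 in the Scramble libraries, 93.5 and 90.8 with shRNA1, 109.7 and 111 in the libraries labelled RNF2 shRNA2, 99 and 94.2 with PRT4165, and 101 and 98.6 with GW-516, in CPM. The shRNA1, PRT4165 and GW-516 libraries lay below Scramble, while those labelled RNF2 shRNA2 lay within its range. ATP6V1C1 fell with shRNA1, at -0.26 ± 0.037 (SE, adjusted p = 1.16e-06), and with PRT4165, at -0.19 ± 0.036 (SE, adjusted p = 1.10e-04). With GW-516 it was -0.15 ± 0.036 (SE, adjusted p = 0.00114), lost without Scramble replicate 2 (adjusted p = 0.0884).

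ATP6V1E1, a stalk subunit, was the 1 V1 gene that rose with shRNA1, at 0.26 ± 0.036 (SE, adjusted p = 6.34e-07). It was lower in the libraries labelled RNF2 shRNA2 (-0.14) and with PRT4165 (-0.14), the latter lost without Scramble replicate 2 (adjusted p = 0.0724). ATP6V1B2, the other nucleotide-binding subunit, was lower with shRNA1 (-0.16) and PRT4165 (-0.15), and both calls were lost without Scramble replicate 1 (adjusted p = 0.0704 and 0.103). ATP6V1D, of the rotor shaft, and ATP6V1H, a regulatory subunit, stayed within differences of -0.15 and 0.12. The ATP6V1D calls with shRNA1 (-0.11) and GW-516 were lost without 1 of several libraries (adjusted p = 0.143 to 0.455 without Scramble replicate 1 or 2 or shRNA1 replicate 2, and 0.0566 and 0.0781 without Scramble replicate 1 or GW-516 replicate 1). The ATP6V1H call with GW-516 was lost without either GW-516 library or Scramble replicate 2 (adjusted p = 0.0634 to 0.112).

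In the V0 sector, ATP6V0D1 (chr16:67471917-67515140, minus strand), which joins the rotor to the membrane ring, was at 59.1 and 61.8 in the Scramble libraries, 43.2 and 44.4 with shRNA1, 68.8 and 69.8 in the libraries labelled RNF2 shRNA2, 68 and 72 with PRT4165, and 80.5 and 78.8 with GW-516, in CPM. The shRNA1 libraries lay below Scramble and those of the other 3 groups above it. ATP6V0D1 fell with shRNA1, at a log2 difference of -0.47 ± 0.042 (SE, adjusted p = 8.24e-10), and rose with GW-516, at 0.40 ± 0.04 (SE, adjusted p = 6.13e-09), with PRT4165, at 0.21 ± 0.041 (SE, adjusted p = 1.39e-04), and in the libraries labelled RNF2 shRNA2, at 0.20 ± 0.04 (SE, adjusted p = 2.80e-04). ATP6V0A2, a membrane subunit of Golgi and endosomal pumps, was called in only 1 of the comparisons with Scramble, lower with shRNA1, at -0.20 ± 0.046 (SE, adjusted p = 7.53e-04). The accessory protein ATP6AP1 rose with GW-516, at 0.56 ± 0.049 (SE, adjusted p = 4.40e-10), for the libraries labelled RNF2 shRNA2, at 0.33 ± 0.049 (SE, adjusted p = 7.05e-06), and with PRT4165, at 0.23 ± 0.05 (SE, adjusted p = 5.40e-04), and differed by 0.077 with shRNA1.

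HEXA and ATP6V0A1 were at or close to 0 in all libraries. HEXA (chr15:72635775-72668817, minus strand), the alpha subunit of beta-hexosaminidase, had 2 counts in replicate 1 of GW-516 and 0 in the other 9 libraries. If each count were independent, a count of 0 would allow up to 3 counts, which is 0.0277 to 0.0455 CPM in these libraries, for counting error only. The ends of a fragment were counted separately, so the limit lies higher. Its neighbours PARP6, CELF6 and TMEM202 had 1, 0 and 0 counts summed over the 10 libraries, while PKM and ARIH1 on either side had 129289 to 336725 and 4492 to 7512 counts per library. ATP6V0A1 (chr17:40610862-40674629, plus strand), the membrane subunit common in most tissues, had 17 and 19 counts in the Scramble libraries, 4 and 2 with shRNA1, 13 and 19 in the libraries labelled RNF2 shRNA2, 15 and 19 with PRT4165, and 40 and 33 with GW-516. The shRNA1 counts are the lowest of the 10 and the GW-516 counts the highest. The model called the shRNA1 value lower (adjusted p = 0.00175), and no fold is given for so few counts. KCNH4, HCRT, GHDC, STAT5B, STAT5A, STAT3 and CAVIN1, which lie on one side of ATP6V0A1, were at 0 in all 10 libraries, whereas NAGLU on the other side had 465 to 777 counts per library. PC3 is known to lack STAT3. Counts do not tell a gene absent from the genome from one that is silent, and which applies to HEXA and ATP6V0A1 was not tested.

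**Figure D4:**
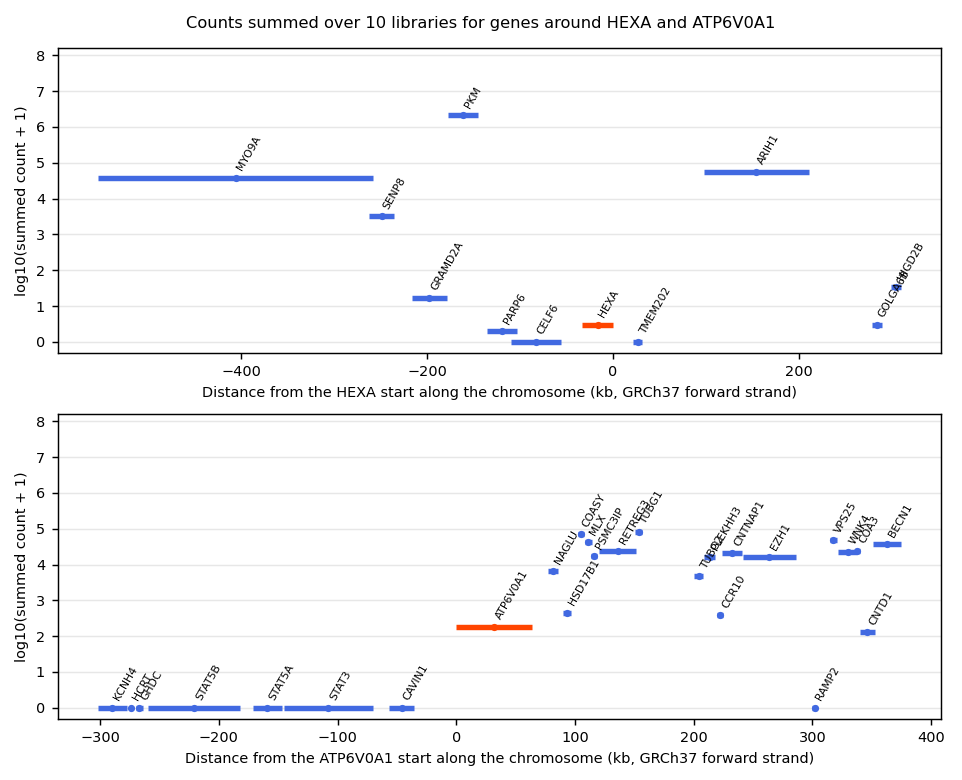
Counts summed over the 10 libraries, as log10 of the sum plus 1, for genes around HEXA (top) and ATP6V0A1 (bottom), drawn as bars from gene start to gene end against the distance from the member's start in kb. HEXA (orange) stands in a run of genes near 0 between PKM and ARIH1, and ATP6V0A1 (orange) at the edge of a run of 7 genes at 0.

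Most members differed between the hairpin groups. In the libraries labelled RNF2 shRNA2 against shRNA1, 16 members (42.1%) were higher and 14 (36.8%) lower, beside 29.9% and 29.2% of all genes, and with pairs summed 15 were higher and 14 lower, beside 20.5% and 22.9%. The median log2 difference was 0.043 over the members and 0.012 over all genes. MCOLN1, at 21.3 and 21.6 against 12.7 and 11.6 CPM, was higher in the libraries labelled RNF2 shRNA2 by 0.82 ± 0.068 (SE, adjusted p = 1.38e-10). All 3 V0 subunits were higher, with ATP6V0D1 at 0.66 ± 0.041 (SE, adjusted p = 6.77e-13), and GLA was higher at 0.67 ± 0.059 (SE, adjusted p = 3.58e-10). TFEB was higher at 0.76 ± 0.20 (SE, adjusted p = 0.00248), a call lost without shRNA1 replicate 2 (adjusted p = 0.073), and so was that of ATP6V0A1, which rests on 2 to 19 counts (0.095). NEU1, at 6.15 and 6.75 against 11.8 and 10.7 CPM, was lower, at -0.80 ± 0.094 (SE, adjusted p = 6.27e-08). GAA and NAGLU were lower too, at -0.54 ± 0.039 (SE, adjusted p = 1.33e-11) and -0.53 ± 0.093 (SE, adjusted p = 2.88e-05), as were PSAP, TPP1, CTSB, ATP6V1E1, SCARB2, TFE3 and SQSTM1, at -0.44 to -0.27. CTSD, CTSL, LAMP2, LIPA and ASAH1 were higher, at 0.36 to 0.55.

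Between the compounds, both given for 48 hours at doses that the labels do not state, more members were called higher with GW-516 than lower. Against PRT4165, 22 members (57.9%) were higher and 2 (5.26%) lower, beside 18.1% and 23.0% of all genes. The median log2 difference was 0.19 over the members and -0.0019 over all genes. With pairs summed, 14 were higher and 0 lower, beside 9.5% and 12.9% of all genes. The higher calls lost there were those of NPC2, LAMP2, TFE3, ASAH1, ARSA, LIPA, ATP6V1D and ATP6V1E1, and the lower ones those of NAGLU and GUSB (adjusted p = 0.0555 to 0.234). GLA, at 34.1 and 35.1 against 20.5 and 19.8 CPM, was 1.72-fold higher with GW-516, a log2 difference of 0.78 ± 0.055 (SE, adjusted p = 4.18e-11) with a 95% interval of 0.67 to 0.89. NEU1 was higher by 0.77 ± 0.092 (SE, adjusted p = 2.26e-07), CTSD by 0.75 ± 0.047 (SE, adjusted p = 2.91e-10), CTSL by 0.61 ± 0.042 (SE, adjusted p = 2.61e-11) and SQSTM1 by 0.50 ± 0.026 (SE, adjusted p = 1.75e-13). MCOLN1, PSAP, CTSB, ATP6AP1 and CD63 were higher by 0.25 to 0.38.

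Some members did not differ detectably between the compounds. TFEB, at 5.72 and 4.26 CPM with GW-516 and 3.87 and 4.79 with PRT4165, differed by 0.21 ± 0.15 (SE, adjusted p = 0.286), with a 95% interval of -0.10 to 0.52. The interval for LAMP1 was -0.071 to 0.091 and that for CTSC -0.062 to 0.052. NAGLU and GUSB were lower with GW-516, at -0.32 ± 0.093 (SE, adjusted p = 0.0071) and -0.19 ± 0.052 (SE, adjusted p = 0.00504). The NAGLU call was lost without GW-516 replicate 1 (adjusted p = 0.0718) or PRT4165 replicate 2 (0.173), and the GUSB call without GW-516 replicate 1 (0.0514). Among higher calls, those of NPC2, LAMP2, TFE3, ARSA and ATP6V1E1 were each lost without at least 1 library (adjusted p = 0.0505 without GW-516 replicate 1 for ATP6V1E1, up to 0.322 without PRT4165 replicate 1 for ARSA).

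**Figure D5:**
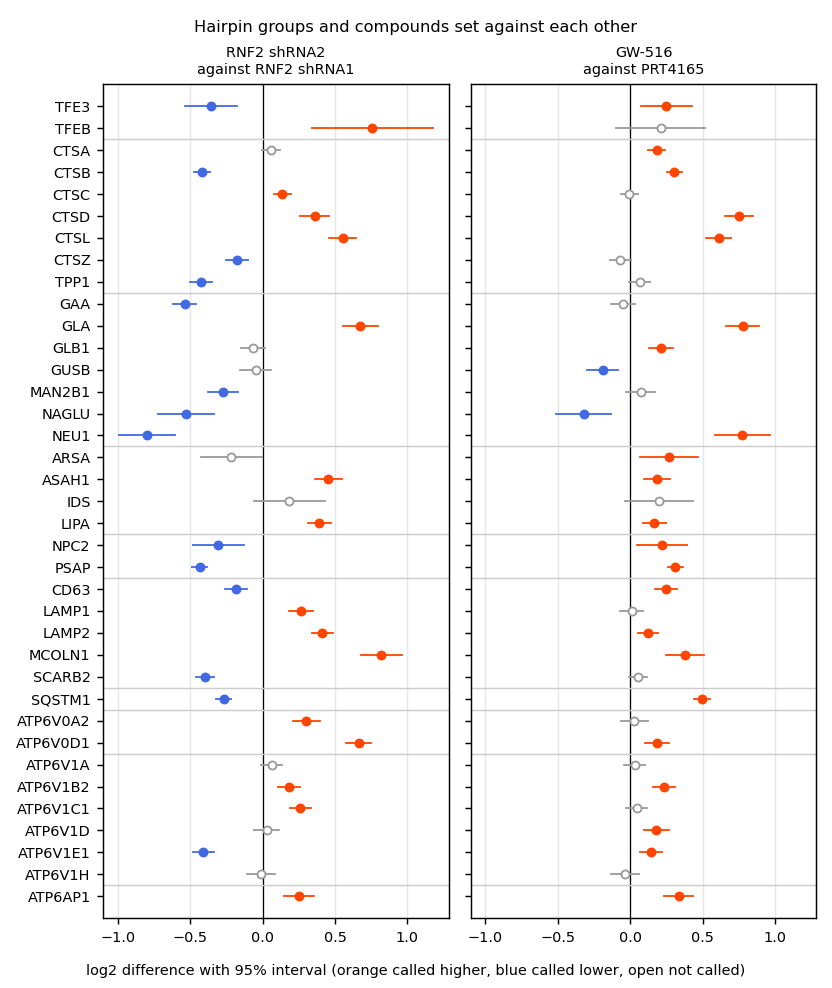
log2 difference with its 95% interval for 37 members, in the order used for the comparisons with Scramble, between the hairpin groups (left) and between the compounds (right). Points lie on both sides of 0 on the left, and on the right most filled points are orange and right of 0, with NAGLU and GUSB the only blue ones.

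Genes of the same pathways outside the 39 were taken from lists of known components. Their counts are read against the shares of all genes called higher and lower, which were 26.5% and 29.0% with GW-516, 19.9% and 21.7% with PRT4165, 26.2% and 28.6% with shRNA1, and 21.1% and 21.0% in the libraries labelled RNF2 shRNA2. Some listed genes share much of their exon length with other genes on their strand, which makes their counts uncertain: CD68 (81.8%), ATP6V0C (72.1%), SPNS1 (55.4%), FNIP1 (47.8%), CLN3 (36.1%), ATG9A (34.9%), GABARAP (30.5%) and GGA2 (20.9%). With PRT4165 the shares for the V-ATPase, hydrolase, membrane protein and sorting lists lay near those of all genes, as did the higher share of the TFEB and mTORC1 list with either compound. For 12 tested further V-ATPase subunits the counts were 7 (58.3%) higher and 1 (8.33%) lower with GW-516 and 2 (16.7%) and 3 (25%) with PRT4165. With shRNA1 the counts were 1 (8.33%) and 7 (58.3%), and in the libraries labelled RNF2 shRNA2 4 (33.3%) and 1 (8.33%). Of these calls 4 and 1, 1 and 2, 1 and 5, and 3 and 1 stayed with pairs summed, in that order. Their median log2 difference was 0.18 with GW-516, 0.007 with PRT4165, -0.13 with shRNA1 and 0.087 in the libraries labelled RNF2 shRNA2, beside the medians over all genes given above, which lay between -0.015 and 0.0086. ATP6V0A4, the kidney and inner ear form of the membrane subunit, was at 0.546 CPM in Scramble (mean of 2 libraries), 0.801 with shRNA1, 1.83 in the libraries labelled RNF2 shRNA2, 2.27 with PRT4165 and 14.8 with GW-516. It rose 27-fold with GW-516, at a log2 difference of 4.76 ± 0.21 (SE, adjusted p = 1.50e-12), and 4.17-fold with PRT4165, at 2.06 ± 0.25 (SE, adjusted p = 2.64e-06). ATP6V0D2, a tissue-restricted form of ATP6V0D1, was at 0.0431 CPM in Scramble, close to 3 counts, and 1.34 with GW-516 (adjusted p = 8.41e-09).

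For 29 tested further hydrolases and activators they were 12 (41.4%) higher and 6 (20.7%) lower with GW-516 and 5 (17.2%) and 6 (20.7%) with PRT4165. With shRNA1 the counts were 9 (31%) and 11 (37.9%), and in the libraries labelled RNF2 shRNA2 7 (24.1%) and 11 (37.9%). Of these calls 10 and 3, 4 and 3, 7 and 10, and 3 and 10 stayed with pairs summed, in that order. The median was 0.16 with GW-516, 0.066 with PRT4165, -0.038 with shRNA1 and -0.069 in the libraries labelled RNF2 shRNA2. MANBA, a beta-mannosidase, rose with GW-516 (0.67) and PRT4165 (0.63). CTSV, a close relative of CTSL, fell in the libraries labelled RNF2 shRNA2, at -1.52 ± 0.086 (SE, adjusted p = 4.71e-13). With shRNA1 CTSV was also below Scramble, at means of 8.40 and 12.4 CPM. For 25 further membrane proteins they were 8 (32%) higher and 5 (20%) lower with GW-516 and 6 (24%) and 4 (16%) with PRT4165. With shRNA1 the counts were 6 (24%) and 11 (44%), and in the libraries labelled RNF2 shRNA2 8 (32%) and 3 (12%). Of these calls 5 and 3, 3 and 1, 4 and 8, and 4 and 2 stayed with pairs summed, in that order. For these the median was 0.013 with GW-516, 0.028 with PRT4165, -0.12 with shRNA1 and -0.006 in the libraries labelled RNF2 shRNA2. NPC1, the cholesterol exporter that receives cholesterol from NPC2, rose 2.52-fold with shRNA1, at 1.34 ± 0.031 (SE, adjusted p = 6.51e-21). LAMP3 fell with GW-516 (-1.05), with PRT4165 (-0.85) and in the libraries labelled RNF2 shRNA2 (-1.40). With shRNA1 LAMP3 was also below Scramble, at means of 12.0 and 16.6 CPM.

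For 24 tested autophagy genes they were 12 (50%) higher and 2 (8.33%) lower with GW-516 and 10 (41.7%) and 4 (16.7%) with PRT4165. With shRNA1 the counts were 16 (66.7%) and 4 (16.7%), and in the libraries labelled RNF2 shRNA2 6 (25%) and 12 (50%). Of these calls 11 and 2, 8 and 2, 12 and 1, and 3 and 8 stayed with pairs summed, in that order. Their median log2 difference was 0.16 with GW-516, 0.044 with PRT4165, 0.26 with shRNA1 and -0.049 in the libraries labelled RNF2 shRNA2. GABARAPL1, an ATG8 family protein of autophagosomes, was 1.99-fold higher with GW-516, at 0.99 ± 0.047 (SE, adjusted p = 7.74e-15), and ATG16L1, which directs ATG8 lipidation, rose with GW-516 (0.94) and PRT4165 (0.88). WIPI1, which binds phosphoinositide on forming autophagosomes, rose 2.60-fold with shRNA1, at 1.38 ± 0.053 (SE, adjusted p = 1.13e-16). For 27 relatives of TFEB and genes of mTORC1 control they were 7 (25.9%) higher and 11 (40.7%) lower with GW-516 and 6 (22.2%) and 11 (40.7%) with PRT4165. With shRNA1 the counts were 10 (37%) and 8 (29.6%), and in the libraries labelled RNF2 shRNA2 10 (37%) and 6 (22.2%). Of these calls 4 and 9, 3 and 7, 8 and 5, and 6 and 6 stayed with pairs summed, in that order. Here the median was -0.094 with GW-516, -0.11 with PRT4165, -0.03 with shRNA1 and 0.03 in the libraries labelled RNF2 shRNA2. TFEC fell with GW-516 (-1.16), with PRT4165 (-0.92) and in the libraries labelled RNF2 shRNA2 (-0.87), at means of 1.57, 1.83 and 1.91 CPM. These differences share the Scramble libraries, where the TFEC mean was 3.51 CPM with an SD of 0.974. MITF fell with PRT4165, at -0.86 ± 0.048 (SE, adjusted p = 3.83e-13). SESN2, a leucine sensor that restrains mTORC1, rose with shRNA1, at 2.18 ± 0.056 (SE, adjusted p = 4.45e-20), and with GW-516, at 1.15 ± 0.057 (SE, adjusted p = 1.38e-14). SESN2 also rose in the libraries labelled RNF2 shRNA2, at 1.09 ± 0.057 (SE, adjusted p = 1.17e-13). With PRT4165 its mean was 18.2 CPM against 11.5 CPM in Scramble. For 17 genes of mannose 6-phosphate tagging and sorting they were 1 (5.88%) higher and 7 (41.2%) lower with GW-516 and 3 (17.6%) and 4 (23.5%) with PRT4165. With shRNA1 the counts were 5 (29.4%) and 8 (47.1%), and in the libraries labelled RNF2 shRNA2 7 (41.2%) and 1 (5.88%). Of these calls 1 and 2, 2 and 1, 3 and 5, and 4 and 1 stayed with pairs summed, in that order. This list had a median of -0.06 with GW-516, -0.0055 with PRT4165, -0.046 with shRNA1 and 0.043 in the libraries labelled RNF2 shRNA2. SORT1, a sorting receptor for PSAP and other cargo, was 2.38-fold higher with PRT4165, at 1.25 ± 0.051 (SE, adjusted p = 5.86e-16), and lower with GW-516 than with PRT4165, at -0.84 ± 0.049 (SE, adjusted p = 1.23e-12). Against Scramble SORT1 was higher with GW-516 too, at 0.41 ± 0.051 (SE, adjusted p = 1.99e-07).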

How the data were processed

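The authors deposited raw counts per gene for each of the 10 libraries. Per the file headers, reads were counted with featureCounts 1.4.3-p1 on the GENCODE 18 annotation with strand option 2 and without a setting for pairs, which counts the ends of a fragment separately. The submitters' processing notes name hg19 (GRCh37), STAR and DESeq2 1.8.1, with no role and no STAR version. A symbol was found for 89.6% of the 57445 identifiers, and 1 entry of the gene lists was unmatched.

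Groups came from the labels. Counts were scaled by TMM and tested with edgeR 4.0.16 (R 4.3.3), quasi-likelihood with robust dispersion, in 1 fit over all 5 groups with 5 residual degrees of freedom, after a filter with a minimum count of 10. Benjamini-Hochberg adjustment covered all 18478 genes. RPKM used exon length from the tables. Count precision was limited by 65877850 to 108380198 counts per library. The code was tested on simulated data. Alternatives were RLE scaling, DESeq2 1.42.0, other filters, the compared groups alone, a replicate block, near-identical pairs summed (7 samples, 2 residual degrees of freedom), each library left out, and a change of at least 1.5-fold. A fit without both libraries labelled RNF2 shRNA2 was added after seeing the data.

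The members and lists were chosen with earlier results of these data known. Named with values in every library were the 3 called members with the largest rise and the 3 with the largest fall in each comparison, and TFEB, TFE3, MCOLN1, LAMP1, CTSD and SQSTM1. Of each pathway list, the called genes with the 2 largest changes in a comparison could be named. The result for 1 gene of these lists is not reported here.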

Additional observations from a re-analysis of the deposited data

How the results depend on the processing

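Of 161 called member results, 113 stayed called under every alternative run and 48 were lost under at least 1, of which 43 were lost with near-identical pairs summed, 32 under at least 1 left-out library and 7 under DESeq2. With the pairs summed, members called lower numbered 9 with shRNA1, 8 in the libraries labelled RNF2 shRNA2, 3 with PRT4165, 1 with GW-516 and 0 for GW-516 against PRT4165, where 14 were higher. That fit has fewer samples. A change of at least 1.5-fold left 2 higher and 4 lower with shRNA1, 0 and 0 in the libraries labelled RNF2 shRNA2, 2 and 0 with PRT4165, 9 and 0 with GW-516, 5 and 1 between the hairpin groups, and 4 and 0 between the compounds. Over all 18478 genes it left 1942 and 2316 between the hairpin groups and 1184 and 340 between the compounds. The all-gene counts for the comparisons with Scramble are given above. With 1 library left out, members called lower ran from 3 to 6 with GW-516 and from 0 to 3 for GW-516 against PRT4165. Each of these fits keeps 1 library in a group. In both comparisons each also called fewer of all genes lower, and fewer higher, than the main fit. The changes in member counts are therefore not read as particular to the members. Over the alternatives the sign turned for a number of members in results not called. Examples are ARSA in the libraries labelled RNF2 shRNA2 (-0.099 to 0.14) and NAGLU with PRT4165 (-0.16 to 0.079). Among members named in a comparison by the rule above, the sign turned in 4 results, with 1 library left out. The log2 difference ran from -0.076 to 0.18 for TFE3 and from -0.052 to 0.080 for LAMP1 in the libraries labelled RNF2 shRNA2, lowest without their replicate 1 and highest without their replicate 2. Between the compounds it ran from -0.017 to 0.41 for TFEB and from -0.0060 to 0.030 for LAMP1, lowest without GW-516 replicate 1 and highest without GW-516 replicate 2. The cause was not tested.

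Whether the replicate numbers pair libraries of different groups is not settled here. Differences between replicates 1 and 2 correlated between groups at -0.0884 to 0.0161 over 13104 genes. In Scramble, shRNA1 and GW-516 these differences were little more than counting noise, so a low correlation there cannot tell paired from unpaired libraries. A fit with the replicate block called 24 members higher and 7 lower with GW-516, 18 and 5 with PRT4165, 13 and 16 with shRNA1, and 11 and 13 in the libraries labelled RNF2 shRNA2, and 1 called member result was lost. Over all 18478 genes that fit called 4818 higher and 5306 lower with GW-516, and 3593 and 3924 with PRT4165. It called 4774 and 5218 with shRNA1, and 3825 and 3805 in the libraries labelled RNF2 shRNA2. Without both libraries labelled RNF2 shRNA2, 26 members were higher and 7 lower with GW-516. Over all 18260 genes tested there, 5263 were higher and 5437 lower, against 4890 and 5362 of 18478 in the main fit. Depth limits HEXA and ATP6V0A1, which had at most 2 and 40 counts in a library.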
